A study of Mus musculus with 2 samples.

Results

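Cytoplasmic ribosomes are built from ribosomal RNA and a set of ribosomal proteins, shared between a small subunit that decodes mRNA and a large subunit that joins amino acids. Most of these proteins are encoded by single expressed genes with many processed pseudogenes, and their mRNAs start with a run of pyrimidines, through which their translation responds to mTOR signalling. Myc family factors are known to raise the production of ribosomes. The genes described here had symbols of the form Rpl or Rps with digits and an optional final a, x, y, l or l1, or were Rplp0, Rplp1, Rplp2 or Rpsa. The rule found 83 of the 27998 genes listed, of which 52 encode large-subunit proteins, the stalk proteins included, and 31 small-subunit proteins. At least 10 UMIs (unique molecular identifiers, each counting 1 captured transcript) were found for 80 of them in the neuroendocrine-like cells. Rpl10l and Rpl39l had 0 UMIs there, and Rpl3l had 2 in TKO1 and 0 in TKO2. The rule left out 6 further ribosomal protein genes in the lists, among them Rps3a1, Rpl36al, Rps27rt, Fau and Gnb2l1.

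The 2 samples, TKO1 and TKO2, were single small cell lung cancers from the lungs of 2 mice on a mixed C57BL/6, 129/SVJ and 129/SvOla background. Both mice carried Rb-/-, Trp53-/- and Rbl2-/- alleles with the Rosa26 membrane-Tomato or membrane-GFP reporter, were given Adeno-CMV-cre at 8 weeks of age, and were 8 to 9 months old at harvest, 7 months after induction. The CMV promoter is active in many cell types, so Cre was not restricted to 1 lung lineage, and there was no untreated sample. Live, DAPI-negative cells were sorted without a tumor marker and captured on a 10x Genomics Chromium controller, with 1 library for each tumor.

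The files held 4514 barcodes and 5285038 UMIs for TKO1, and 3816 barcodes and 8291430 UMIs for TKO2. Cells with more than 500 genes and under 10% mitochondrial UMIs numbered 3193 in TKO1 (median 1223 UMIs) and 3568 in TKO2 (median 1960 UMIs). The libraries shared 22 barcodes, 11 of them in retained cells of both. The cells of each tumor were clustered with the ribosomal protein genes left out. TKO1 gave 9 clusters with neuroendocrine markers, numbered 0 to 8 (2988 cells), a club-like cluster (108 cells) and a macrophage-like cluster (97 cells). In the club-like cluster 7 club and 5 alveolar type 2 markers were at least 4-fold over other cells. The alveolar markers Sftpb and Ager were among its leading genes. TKO2 gave 8 clusters with neuroendocrine markers, 0 to 7 (3383 cells), a macrophage-like cluster (122 cells) and a cluster of 63 cells with club, ciliated and neuroendocrine markers together, which was left unnamed. TKO1 clusters 1, 3, 5 and 7 had genes of ciliated, fibroblast or endothelial lists among their leading genes, so tumors were compared cluster by cluster as well as over the pooled clusters. Over the pooled clusters Rb1 had 326 UMIs in TKO1 and 118 in TKO2, Trp53 206 and 491, and Rbl2 40 and 14. Counts per gene do not show whether the deleted exons are missing from these transcripts. With 1 library for each tumor there was no test between tumors, and tumor, mouse and library cannot be told apart. All intervals are 95% and cover counting error only.

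The family took a larger share of the UMIs in every neuroendocrine-like cluster of TKO2 than in any of TKO1. Its share was 8.25% to 11.2% in 8 of the TKO1 clusters and 17.1% in cluster 6, and 19.3% to 25.7% in the 8 clusters of TKO2. Over the pooled clusters it was 10.6% in TKO1 (interval 10.5% to 10.6%) and 23.0% in TKO2 (22.9% to 23.0%), a 2.17-fold difference. Single cells overlapped. The middle 90% of cells ran from 6.56% to 17.6% in TKO1, with a median of 9.82%, and from 14.7% to 31.0% in TKO2, with a median of 22.6%. In TKO1, 308 of 2988 cells (10.3%) lay above the 5th percentile of TKO2, and 154 of them came from the 243 cells of cluster 6. In summed UMIs the TKO1 share differed little between depths, and the TKO2 share was lower in the shallowest cells. Among cells with 500 to 1000, 1000 to 2000 and 2000 to 4000 UMIs it was 10.6%, 10.5% and 10.6% in TKO1 and 20.3%, 22.8% and 23.3% in TKO2. The medians over TKO1 cells went from 10.2% to 9.75% and 9.48% over these depths, and those over TKO2 cells from 20.2% to 22.4% and 23.3%. Barcodes that failed the filters had 11.6% in TKO1 and 22.7% in TKO2. Mitochondria-encoded genes took 0.572% of the UMIs in TKO1 and 0.958% in TKO2.

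**Figure D1:**
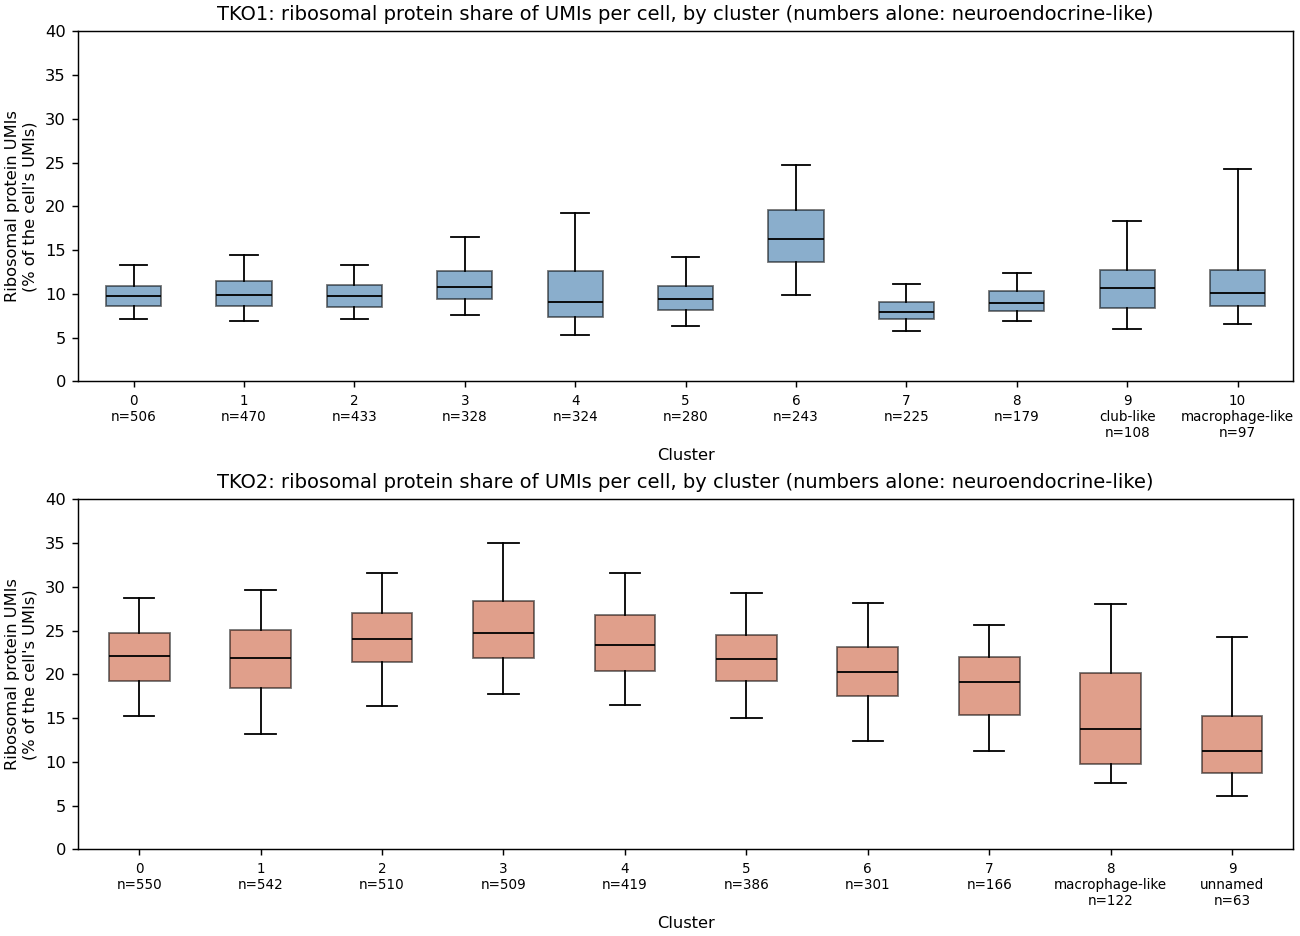
Share of each cell's UMIs from ribosomal protein genes (percent, y axis) by cluster in TKO1 (top) and TKO2 (bottom). Boxes span the quartiles with the median as a line, whiskers run from the 5th to the 95th percentile of cells, and n is the number of cells. Cluster 6 of TKO1 has a median of 16.3%, and the medians of the TKO2 neuroendocrine-like clusters lie between 19.1% and 24.8%.

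Both subunits contributed. Large-subunit genes took 6.44% of the UMIs in TKO1 and 13.5% in TKO2, and small-subunit genes 4.13% and 9.42%, so the ratio of small to large was 0.640 in TKO1 and 0.696 in TKO2. Across cells, the large-subunit and small-subunit shares went together, with a Pearson r of 0.81 over 2988 cells in TKO1 and 0.86 over 3383 in TKO2, in points that share a library and a denominator. The standard deviation of the share over cells was 3.40 percentage points in TKO1 and 5.04 in TKO2, against 0.884 and 1.01 from counting at the cells' depths. A median of 52 members was seen in a TKO1 cell and 72 in a TKO2 cell, and the 10 most abundant members made up 29.8% and 29.9% of the family.

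Between the tumors, 54 of the 80 members with at least 10 UMIs were at least 2-fold higher in TKO2 and 0 were at least 2-fold lower, against 12.6% and 31.1% of the 12922 genes tested. The median log2 ratio of the members was 1.16 (quartiles 0.92 and 1.34), against -0.37 over all genes tested. Here and below, medians over all genes keep only genes with UMIs in both groups compared. For 56 of the 80 members every TKO2 cluster was above every TKO1 cluster in CPM (a gene's UMIs scaled to a common total of all UMIs in the same cells), against 4.99% of the 12922 genes, and for 71 when TKO1 cluster 6 was left out, against 6.02%. Among the 2112 genes with at least 1000 UMIs the clusters were apart in this way for 55 of 78 members against 15.2% of the genes, and without cluster 6 for 70 against 18.2%. Without the 4 TKO1 clusters that had any marker of another type among their leading genes, 46 members were at least 2-fold higher. Those clusters had neuroendocrine markers too, and cluster 6 was not among them. Scaling with edgeR's TMM factors moved the median of all genes to -0.02 and gave 72 such members. The median over non-member genes within 5 Mb of a member ran from -1.23 to 0.27 on the log2 scale, and the 618 other genes with transcripts under 700 bases had a median of -0.16.

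Levels are given in CPM, not corrected for length. By the mean of the tumors Rpl13, Rpl41, Rps19 and Rpl32 were among the 5 leading members. Rpl41, which encodes the shortest ribosomal protein, was first in TKO1 with 4845 (interval 4779 to 4912) and 7th in TKO2 with 6186 (6131 to 6242). The lowest of those tested were Rpl6l, Rpl35a, Rpl22l1, Rpl15 and Rpl7l1, with 9.47 to 148 CPM in TKO1 and 24.7 to 194 in TKO2. Many members have near-identical copies. For 35 of 82 members at least 50% of the stretches of 90 bases at the 3′ end of the transcript also occurred in transcripts of other genes. High and low members were among those with copies, since the share was 94.8% for Rpl15 and 41.7% for Rpl35a, but 100% for Rpl11 and Rps27, and the part of copies in the levels was not tested.

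**Figure D2:**
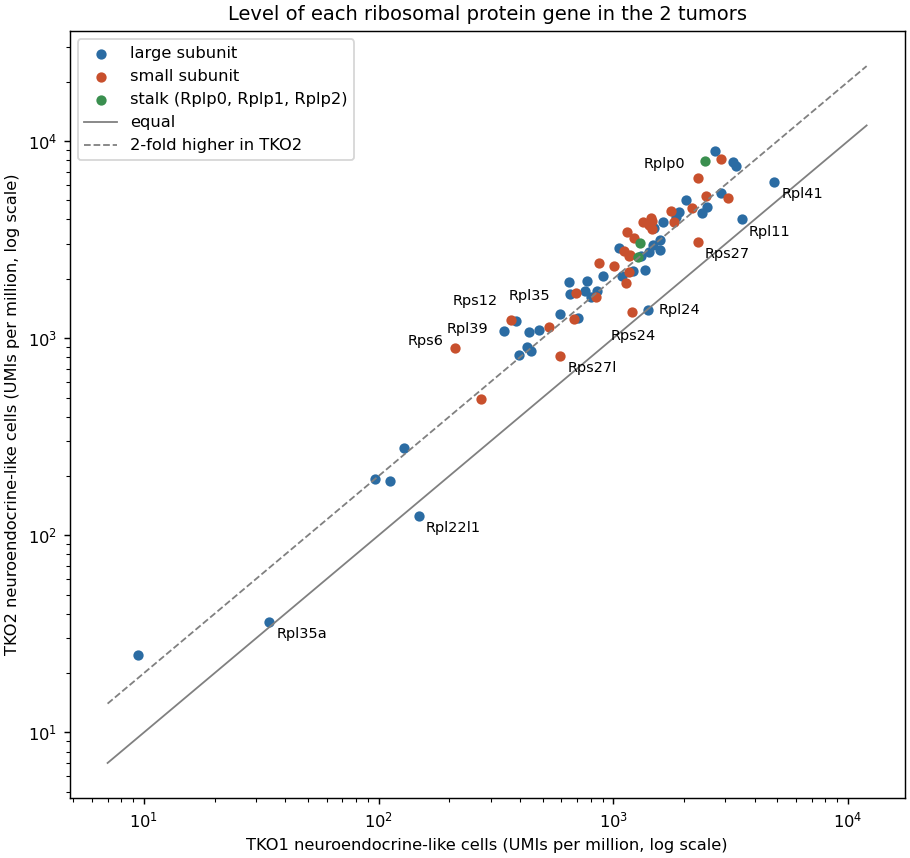
Level of each of the 80 members in the pooled neuroendocrine-like cells of TKO1 (x axis) and TKO2 (y axis), in CPM on log scales. Points on the solid line are equal in both tumors, and the dashed line marks a 2-fold higher level in TKO2. Genes are named among those at least 0.5 log2 units from the family median, with Rpl22l1 below the solid line and Rps6 farthest above it.

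Of the 80 members, 66 lay within 0.5 log2 units of the family median, 8 lay lower and 6 higher. The RefSeq start regions of 6 of these 14 members are shown as examples that hold a pyrimidine run near the start. The known feature of these mRNAs is a run at their first bases, which the search did not require. In Rps12 and Rpl11 the marked run begins 8 and 14 bases after the annotated start. Each line gives 10 bases before and 20 after the annotated start, 5′ to 3′ on the gene's strand (GRCm38.p6), with a run of at least 6 pyrimidines that begins with C in capitals.
Rps6: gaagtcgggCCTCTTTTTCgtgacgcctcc
Rps12: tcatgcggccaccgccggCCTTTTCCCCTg
Rps24: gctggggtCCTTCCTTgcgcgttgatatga
Rps27: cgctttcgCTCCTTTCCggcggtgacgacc
Rpl22l1: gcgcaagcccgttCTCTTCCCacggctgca
Rpl11: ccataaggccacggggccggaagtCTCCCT
They lie at chr4:86857348-86857377 (minus strand), chr10:23787190-23787219 (minus), chr14:24490668-24490697 (plus), chr3:90213629-90213658 (minus), chr3:28805498-28805527 (plus) and chr4:136053374-136053403 (minus). The first 2 belong to the members with the highest ratios and the last 4 to members with low ones. No run was found in the regions of Rplp0, a member with a high ratio, or of Rpl24 and Rpl41, with low ones, and Rps27l and Rpl35a had start regions with and without one. The table of RefSeq promoters held 74 start regions for 62 of the 83 members. Such a run stood in 38 of the 74 (51.4%) and in 22.02% of all 32851 start regions. In the whole windows of 250 bases before and 50 after the start, searched on both strands, CCGGAAGT, the core of an ETS site, stood in 16.2% of the members' regions and 3.89% of all, AAGATGGCG, the core of a YY1 site, in 8.11% and 1.40%, GGGCGG in 59.5% and 35.7%, CACGTG, the E-box bound by Myc, in 10.8% and 7.15%, and TATAAA in 9.46% and 13.6%. Overlaps between motifs were not removed, and a match describes the letters only.

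Rps6, a small-subunit protein phosphorylated downstream of mTOR, stood highest. It had 211 CPM in TKO1 (interval 198 to 226) and 888 in TKO2 (867 to 910), a log2 ratio of 2.07 (1.97 to 2.17), and its clusters ran from 145 to 377 in TKO1 and from 766 to 994 in TKO2, with no overlap. Rplp0, the base of the stalk that recruits translation factors, had 2456 in TKO1 and 7933 in TKO2, a log2 ratio of 1.69, against 1.23 for Rplp1 and 1.02 for Rplp2, which sit on it. Rps12 (1.76), Rpl35 (1.67) and Rpl39 (1.66) were also in this group. Over the transcript ends, 80.1% of the stretches of Rps6 and 87.7% of those of Rps12 also occurred in other genes' transcripts.

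At the other end stood Rpl22l1, the paralog of Rpl22. It had 148 CPM in TKO1 (interval 137 to 160) and 126 in TKO2 (118 to 134), a log2 ratio of -0.23 (-0.38 to -0.08), which became 0.12 with TMM factors. Its clusters overlapped. Rpl22l1 had 357 CPM in TKO1 cluster 6 and 90.7 to 191 in the other neuroendocrine-like clusters of TKO1, against 111 to 144 in those of TKO2. The median over these clusters was 132 in TKO1 and 131 in TKO2. Rpl22 itself, which binds other RNAs besides ribosomal RNA, had 709 and 1261, a log2 ratio of 0.83. Rpl24, a late-joining protein of the large subunit, had 1406 in TKO1 and 1388 in TKO2, and its clusters overlapped, from 1048 to 2028 in TKO1 and 1214 to 1482 in TKO2. Rps24 had 1205 and 1365, a log2 ratio of 0.18. Rpl35a had only 144 and 283 UMIs in all, and its log2 ratio of 0.10 had an interval of -0.20 to 0.40. Rpl41 (0.35), Rps27 (0.43) and the Rps27 paralog Rps27l, a p53 target (0.45), were higher in TKO2 by less than the rest. Relative to the family rather than to all UMIs, Rpl24 made up 1.33% of the members' UMIs in TKO1 and 0.605% in TKO2, and Rps24 1.14% and 0.595%, with no overlap between the clusters of the tumors. Non-member genes within 5 Mb had medians of -0.87 around Rpl24 (16 genes), -0.82 around Rps24 (32 genes) and -1.23 around Rpl35a (45 genes). Over 80 members the median of such values was -0.34, and those around the other low and high members are not given here. The part of neighboring genes in these ratios was not tested.

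**Figure D3:**
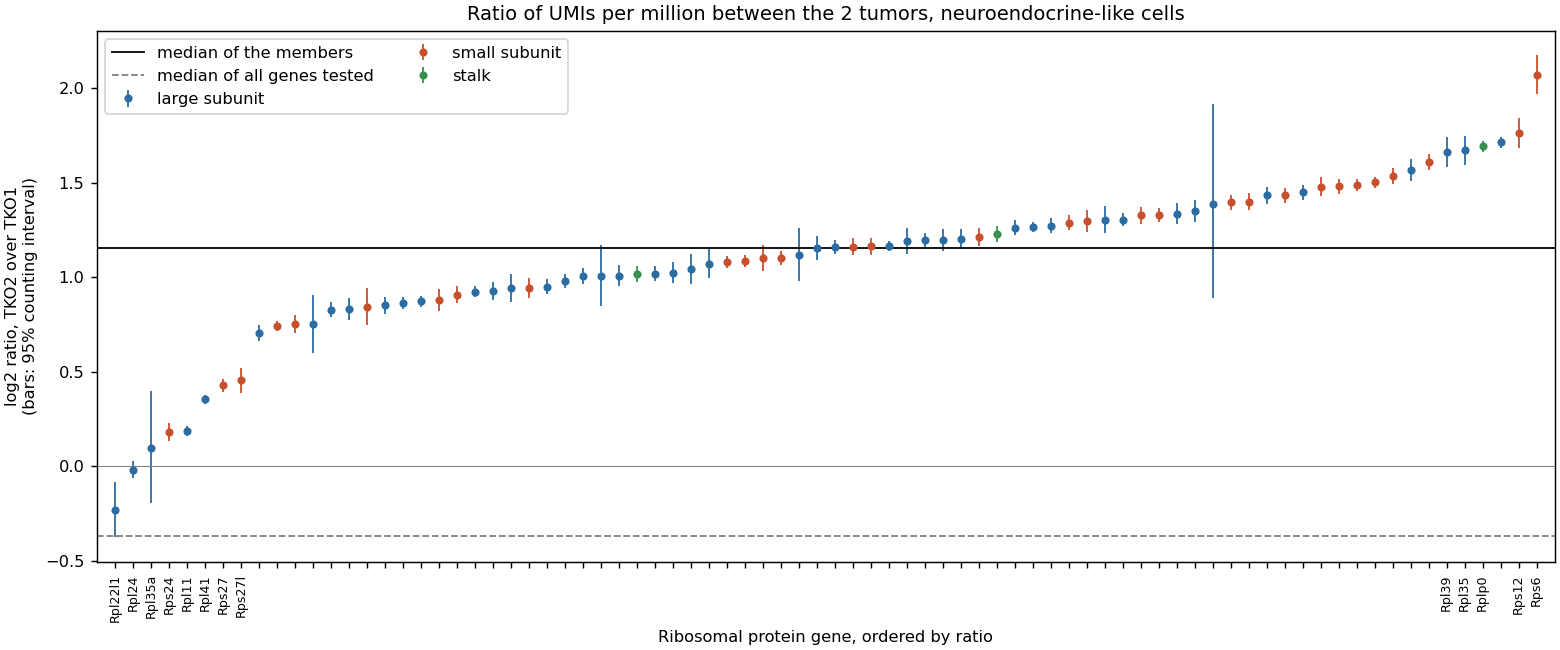
Log2 ratio of CPM, TKO2 over TKO1, for the 80 members in order (x axis, with names for some of those at the ends), with 95% counting intervals as bars and colors for the subunit. The solid line is the median of the members (1.16) and the dashed line that of all genes tested with UMIs in both tumors (-0.37). Of the 80 members, 66 lie within 0.5 of the solid line, and 8, from Rpl22l1 to Rps27l, lie farther below it.

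Other members with known special roles lay within 0.5 log2 units of the family median. Rpl5, which with Rpl11 can bind Mdm2, had 398 CPM in TKO1 and 819 in TKO2 (log2 ratio 1.04). Rps19 and Rps26, both mutated in Diamond-Blackfan anemia, had log2 ratios of 1.5 and 0.84. Rps27a, made as a fusion with ubiquitin, had 1.48, Rps3, which also acts in DNA repair, 1.08, Rpsa, also known as the laminin receptor, 1.33, the X-linked Rps4x 1.43, and Rpl38, needed for Hox mRNA translation, 1.01. The paralogs Rpl7l1 and Rpl6l stood far below their parents. Rpl7l1 had 112 in TKO1 and 188 in TKO2, against 772 and 1947 for Rpl7, and Rpl6l 9.47 and 24.7, against 655 and 1669 for Rpl6. Among the 6 genes outside the rule the median log2 ratio was 0.56. Fau, a fusion of a ubiquitin-like protein with a small-subunit protein, had 1.17 and Gnb2l1, the scaffold also called Rack1, 1.45, while Rps27rt had 0.00.

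Other genes of translation were compared from fixed lists. Over all genes tested, as above, 12.6% were at least 2-fold higher and 31.1% lower. Of 7 elongation genes, 4 were at least 2-fold higher in TKO2 (median 1.04). Eef1a1, which delivers aminoacyl-tRNA, had 1675 CPM in TKO1 and 3434 in TKO2, and Tpt1, whose mRNA also starts with a pyrimidine run, 897 and 961. Of 25 initiation genes 4 were at least 2-fold higher and 1 lower (median 0.64), with Eif1 at 1625 and 1673. Of 49 ribosome biogenesis genes, 31 were at least 2-fold higher and 1 lower (median 1.24). Npm1, a nucleolar chaperone, had 556 and 3046, a log2 ratio of 2.45, above every member of the family. Of 76 mitochondrial ribosomal protein genes tested, 14 were at least 2-fold higher and 1 lower (median 0.33). The initiation and mitochondrial lists thus had shares of higher genes near that of all genes, and fewer lower genes.

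In TKO2, cells with more Mycn had a larger ribosomal protein share. Mycn had 12.5 CPM in the neuroendocrine-like cells of TKO1 and 2879 in those of TKO2. After the UMIs outside the family were thinned to 700 in each cell, 797 TKO2 cells kept 0 Mycn UMIs, 717 kept 1, 546 kept 2, 577 kept 3 to 4 and 516 kept 5 or more. The median share over cells was 21.0%, 22.01%, 22.9%, 23.6% and 24.4% in that order. In summed UMIs the first and last were 21.5% (interval 21.4% to 21.6%) and 24.7% (24.6% to 24.8%), a difference of 3.19 percentage points, while the quartiles of neighboring bins overlapped. The difference ran from 2.31 to 4.08 points within 4 equal bins of depth. It was 2.16 points among cells with 0 cycling UMIs, of which 25 had 0 Mycn UMIs and 9 had 5 or more. The bins were not split by cluster. Cluster 1 had the least Mycn (1326 CPM) and a share of 22.6%, the same as cluster 0 with 3073 CPM. Clusters 4 and 3 had the most Mycn (3846 and 3773 CPM) and shares of 24.2% and 25.7%. The part of cluster in the difference was not tested. All 80 members tested were higher in the cells with 5 or more Mycn UMIs, against 40.9% of the 10144 genes tested. The members' median log2 ratio was 0.21, against -0.12 for genes with UMIs in both bins. Of the members 0 reached 2-fold, against 3.09% of the genes tested. The log2 ratios ran from 0.02 for Rpl21 to 0.74 for Rpl35a. Npm1 had 0.53 and Ncl, the nucleolin gene, 0.67.

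In TKO1, cells with more Mycl had a larger share. This comparison was chosen after the values had been seen. At the same depth, 2579 TKO1 cells kept 0 Mycl UMIs, 133 kept 1, 48 kept 2, 17 kept 3 to 4 and 13 kept 5 or more. Their median shares were 9.65%, 12.6%, 17.9%, 18.4% and 21.7%. The 78 cells with 2 or more had 18.8% of their summed UMIs from the family (interval 18.6% to 19.0%) against 10.0% in cells with 0 (9.98% to 10.0%). Of the 78, 52 were in cluster 6, which was led by Nefm, Nefl, Neurog3 and Mycl, and the other 26, outside that cluster, had 17.8%. The 114 cells of cluster 6 that kept 0 Mycl UMIs had 15.9%, against 9.75% in the 2465 such cells of the other clusters. In TKO2, where 101 cells kept 1 or more Mycl UMIs, they had 23.0%, the same as the 3052 cells with 0.

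**Figure D4:**
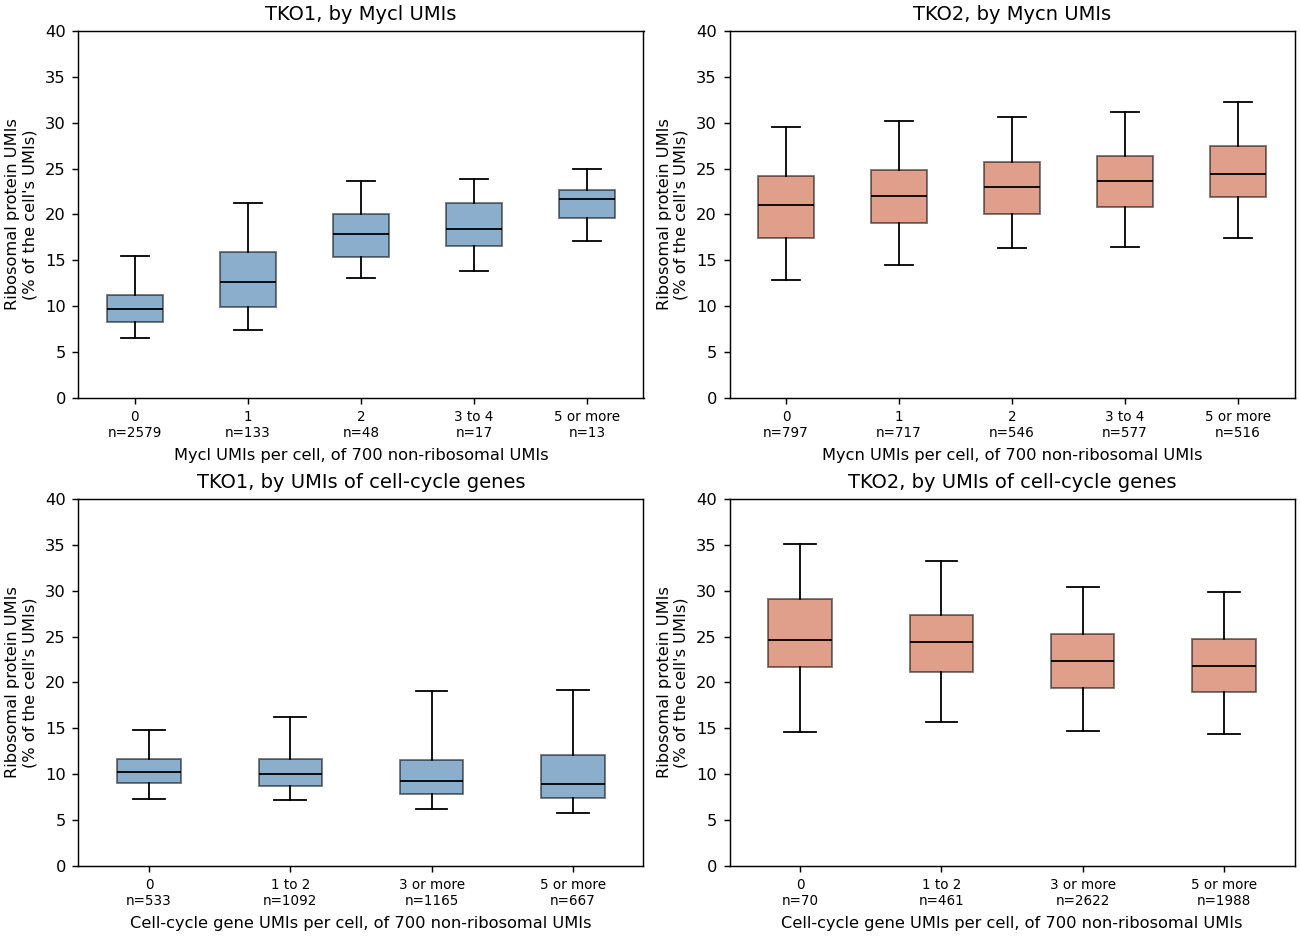
Share of each cell's UMIs from ribosomal protein genes (percent, y axis) by Mycl UMIs in TKO1 and Mycn UMIs in TKO2 (top), and by UMIs of cell-cycle genes (bottom, where the last bin is part of the one before it). UMIs outside the family were thinned to 700 in each cell before binning. Boxes span the quartiles, whiskers run from the 5th to the 95th percentile, and n is the number of cells. Medians go from 9.65% to 21.7% over the Mycl bins and from 21.0% to 24.4% over the Mycn bins.

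Between TKO1 cells with 2 or more Mycl UMIs and those with 0, 20 of the 80 members were at least 2-fold higher, against 9.08% of the 11494 genes tested. The members' median was 0.81, against -0.10 for genes with UMIs in both groups, and 36.0% of all genes tested were higher. That share counts genes without UMIs in the cells with 2 or more Mycl UMIs as not higher. Those cells held 155437 UMIs in all, against 3710318 in the cells with 0. The highest ratio was that of Rpl11. Rpl11, a large-subunit protein that can bind Mdm2, had 15061 CPM (interval 14457 to 15684) in the cells with 2 or more Mycl UMIs and 2860 (2805 to 2915) in those with 0, a log2 ratio of 2.40 (2.33 to 2.46). The next members were Rpl22l1 with 1.38 and Rpl35a with 1.36. Over the bins of Mycl UMIs in the order given above, Rpl11 had 2860, 6567, 12499.5, 16524 and 22987 CPM and made up 2.86%, 4.84%, 6.97%, 8.70% and 10.5% of the family. Without Rpl11 the family's share was 9.73% with 0 Mycl UMIs and 17.3% with 2 or more. By cluster, Rpl11 had 9129 in cluster 6, 5595 in cluster 4, which was led by mitotic genes, and 2085 to 2884 in the other 7 neuroendocrine-like clusters of TKO1, against 3276 to 4630 in those of TKO2. In the macrophage-like and club-like cells of TKO1 it had 2042 and 1947.

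Rpl11 and Mycl lie on the same chromosome. In GENCODE M21 (GRCm38) Mycl is at chr4:122995652-123002485 and Rpl11 at chr4:136028265-136053428, 13.0 Mb apart. Between the 2 groups of TKO1 cells, Pabpc4, Ppie, Trit1, Akirin1 and Macf1, 5 of the 7 genes with at least 100 UMIs within 1 Mb beyond Mycl, had log2 ratios of 5.15, 4.35, 3.60, 3.39 and 2.44. The others there, Rragc and Mycbp, had 0.36 and -1.35, and Ppt1, 0.16 Mb before Mycl, had -1.26. From 1 to 2 Mb beyond Mycl 0 of 6 genes were at least 2-fold higher. From 12.8 to 13.6 Mb beyond Mycl, a window set after the values had been seen, all 13 non-member genes with at least 100 UMIs were above 0 and 10 were at least 2-fold higher. These 13 had log2 ratios from 0.85 to 2.36, E2f2, Kdm1a and Pnrc2 leading. Between 2 Mb beyond Mycl and that window 5 of 79 genes were at least 2-fold higher, among them Mecr (2.58) and Epb41 (2.50), neighbors at 8.85 and 8.93 Mb with ratios above that of Rpl11. In the 1 Mb before that window 0 of 7 genes were above 0, and in the 1 Mb after it 0 of 2. On the other chromosomes 4.69% of 5033 genes were at least 2-fold higher. Among the other members on chromosome 4, Rps20, near its far end, had 1.23, Rps6, 36.1 Mb before Mycl, 0.86, and Rpl22, 29.3 Mb beyond it, -0.22 (interval -0.53 to 0.07), the lowest ratio of the 79 members with UMIs in both groups (Rpl6l had 0 and 39 UMIs). All 211 stretches of 90 bases at the end of the Rpl11 transcript also occurred in transcripts of other genes, 6 in number, and reads of these copies cannot be told apart from its own where they are identical.

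**Figure D5:**
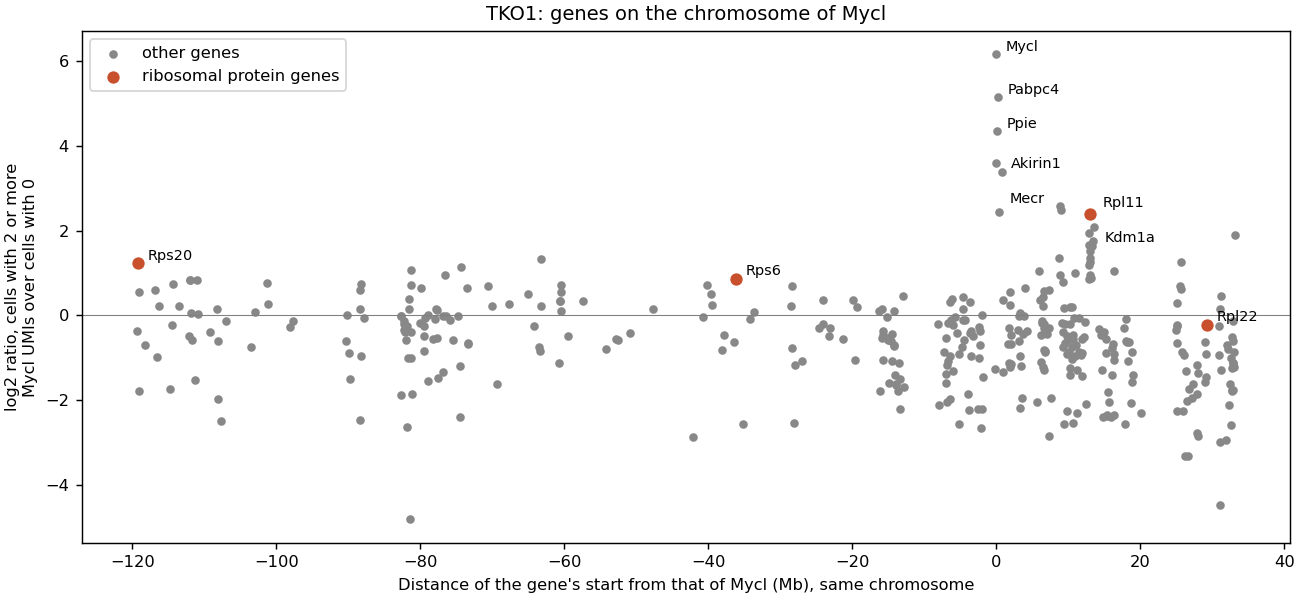
Log2 ratio of CPM, TKO1 cells with 2 or more Mycl UMIs over cells with 0 (y axis), for genes with at least 100 UMIs on the chromosome of Mycl, by distance from Mycl in Mb (x axis). Orange points are the ribosomal protein genes named in the text and grey points genes outside the family. Some genes next to Mycl reach up to 5.15 while others there lie below 0, Mecr at 8.85 Mb reaches 2.58, and Rpl11 at 2.40 stands among higher genes 13.0 Mb away.

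The genes whose presence in a cell went with the largest differences in share differed between the tumors. Over 2604 genes held by 5% to 95% of 2790 TKO1 cells, the first 3 were Mycl (15.3% in cells with a UMI, 10.1% without), Ppie (13.7% and 9.96%) and Akirin1 (12.6% and 10.1%), then Gm10260 and Mecr. Mecr lies 8.85 Mb beyond Mycl. At the other end were Itm2b (10.2% and 12.5%), the immediate-early gene Fos, and Asf1b, Pbk and Hdgfrp3. Over 2535 genes in 3153 TKO2 cells the first were Mif (23.0% and 19.8%), Fau, Npm1, Eef1a1 and Eef1g, with Mycn 10th (23.3% and 21.0%). Fau is itself a ribosomal protein gene that the rule left out. Lowest were Spc25 (20.4% and 23.1%), of the kinetochore, and Cdkn2d, Nusap1, Id4 and Clic1. In both tumors 90% of the genes gave smaller differences, from -0.60 to 0.64 points in TKO1 and -1.11 to 0.97 in TKO2.

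Cells with many cell-cycle UMIs had a smaller share in TKO2. With 0, 1 to 2, and 3 or more UMIs of 65 cell-cycle genes the summed shares were 25.3% (70 cells), 24.9% (461 cells) and 22.6% (2622 cells). Between the ends this was a difference of -2.64 points. The counting intervals of the first and last did not overlap, but the quartiles over cells did, 21.7% to 29.1% and 19.3% to 25.3%. The difference was -2.98 points among cells with 0 Mycn UMIs. In TKO1 the summed shares were 10.5%, 10.6% and 10.5% in 533, 1092 and 1165 cells, and the medians over cells 10.2%, 10.0% and 9.26%. Among TKO1 cells with 0 Mycl UMIs the share was 10.4% with 0 cycling UMIs and 9.55% with 3 or more, and the 58 cells with both 3 or more cycling and 2 or more Mycl UMIs had 18.6%. In TKO2, 72 of the 80 members were lower in the cells with 3 or more cycling UMIs, and in TKO1 41 were lower and 39 higher. Over all genes tested, 57.7% of 11317 were higher in TKO2 and 52.9% of 10875 in TKO1. These shares count genes without UMIs in the cells with 0 cycling UMIs as higher, and only 70 TKO2 cells were in that bin. Among genes with UMIs in both bins the median log2 ratio was -0.09 in TKO2 and 0.02 in TKO1. In TKO1 the members that departed most between cells with 3 or more and 0 cycling UMIs were Rpl11 (log2 ratio 0.58), Rpl22 (-0.52) and Rpl27a (-0.51). In TKO2 they were Rpl35a (-0.88) and Rpl22l1 (0.38), against a family median of -0.16. Both are among the members with the lowest levels. The 70 TKO2 cells with 0 cycling UMIs held 124273 UMIs of all genes, so these 2 ratios rest on few UMIs.

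Macrophage-like cells differed from the neuroendocrine-like cells in opposite directions in the tumors. In TKO1 the family took 11.5% of their UMIs (interval 11.4% to 11.7%), 0.966 points above the neuroendocrine-like cells, although the medians over cells, 10.1% and 9.82%, were close. In TKO2 it took 16.1% (15.9% to 16.2%), 6.88 points below. In TKO2, 36 of the 122 macrophage-like cells held 1 or more Mycn UMIs, and the class as a whole had 706 Mycn CPM against 1326 to 3846 in the neuroendocrine-like clusters. The cells with Mycn UMIs had a ribosomal protein share of 20.1% and the 86 with 0 had 13.3%. The unnamed TKO2 cluster had 15.2% in all, 10.6% in 48 cells with 0 Mycn UMIs and 21.7% in 15 cells with 1 or more. The part of tumor RNA in these shares was not tested. Club-like cells of TKO1 had 10.3% (10.2% to 10.5%), 0.242 points below the neuroendocrine-like cells in summed UMIs, but the order turned for the medians over cells, 10.6% and 9.82%, and among cells with 1000 to 2000 UMIs, where the club-like cells were 1.09 points above.

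By member, 75 of 80 were lower in the macrophage-like than the neuroendocrine-like cells of TKO2, and 32.5% of the 11986 genes tested were higher. The members' median log2 ratio was -0.55, against -0.30 for genes with UMIs in both classes. Genes without UMIs in the macrophage-like cells are left out of the latter, so it is not the median of all genes tested. Only Rpl27a was at least 2-fold lower (29 UMIs, log2 ratio -1.13, interval -1.71 to -0.60), against 39.1% of the 11986 genes tested. That share, and those given below for other classes, count genes without UMIs in the class as lower. Shares among abundant genes alone were not taken. The 5 that were not lower were Rpl22l1 (0.24), Rpl24 (0.09), Rpl6l (0.09), Rps24 (0.08) and Rps27 (0.05). All but Rpl6l were also among the 8 members with low ratios between the tumors, in a comparison that shares the TKO2 neuroendocrine-like cells. In TKO1, 53 members were higher and 26 lower, not counting Rpl6l, which had 0 UMIs in the macrophage-like cells. Of the 11912 genes tested, 29.2% were higher. Rpl39 (0.86), Rps20 (0.75), Rps29 (0.74), Rps12 and Rps9 (both 0.73) were highest. Rpl11 (-0.79), Rpsa (-0.62), Rpl15 (-0.60) and Rpl4 (-0.58) were lowest. The 1 member at least 2-fold lower there, against 46.4% of 11912 genes, was Rpl6l, with 0 UMIs against 40. In the unnamed TKO2 cluster 78 members were lower, while 45.1% of 11682 genes were higher. There 2 members, among them Rpl35 (-1.01), were at least 2-fold lower, against 30.8% of the genes. In the club-like cells of TKO1 Rps27l was lowest at -1.0 and Rps19 was among the highest at 0.62. The members had a median of -0.07, against -0.53 for genes with UMIs in both classes.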

How the data were processed

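One tumor from each of 2 mice was sequenced by the authors as 1 library. The deposited values were whole-number UMI counts per gene and barcode, not normalized. The submitters' processing notes name Cell Ranger, Seurat and mm10, without versions, and which barcodes were kept is not given in the sources used here. Seurat 5.3.0 (R 4.3.3) was run on each tumor with the study's settings (1000 variable genes, 10 components, genes in at least 10 cells) at resolution 0.8. Clusters were named from at least 3 markers, 4-fold over other cells, or for neuroendocrine-like 2-fold over macrophage-like cells. Scrublet (scanpy 1.11.5) called 0 doublets in either tumor and so did not work, and the top 5% of scores were left out as an alternative. Shares have Clopper-Pearson, levels Poisson, and ratios conditional binomial intervals. Those of shares and ratios were tried on simulated counts that held counting error only, and those of levels were not tried. Genes were named by a fixed rule: extremes of level, departures of 0.5 log2 or more from the family median, paralogs, and members with known further roles. Members and lists were chosen with earlier results of these data known. Replicate animals were not part of the design used here, so spread between animals is unknown. Positions came from GENCODE M21 and start regions from RefSeq (GRCm38.p6). The alternatives concern filters, clustering, scaling (edgeR 4.0.16 TMM), depth and cell sets. A few genes are not reported by name here.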

Additional observations from a re-analysis of the deposited data

Results flagged for a closer look

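The macrophage-like cells differed from the neuroendocrine-like cells in opposite directions in the tumors, by 0.966 percentage points in TKO1 and by -6.88 in TKO2. The difference between the tumors was not tested, since there was 1 library for each. Leaving out the macrophage-like cells with Mycn UMIs gave 0.892 and -9.63 points. In TKO1 this left out only 1 of 97 cells, so the value there could hardly change. Mycn was low in the TKO1 neuroendocrine-like cells too (12.5 CPM), so it cannot mark tumor RNA in that library. Calca, of the neuroendocrine marker list, was found in 43 of the 97 macrophage-like cells of TKO1. Those cells had a share of 11.1%, against 11.9% in the 54 with 0 Calca UMIs. Among club-like cells the share was 10.1% in 68 cells with Calca UMIs and 10.8% in 40 without. The part of tumor RNA in these values was not tested.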

How the results depend on the processing

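The log2 ratio of the family's share between the tumors (1.12) was above 1 under each alternative tried. It was 1.10 over all retained cells, 1.08 over all barcodes and over cells with more than 200 genes, and 1.14 with more than 1000 genes. It was 1.12 without mitochondrial UMIs in the total, 1.11 with the 6 unmatched genes and 1.2 for medians over cells. Without the TKO1 clusters that had markers of other types among their leading genes it was 1.04, and without TKO1 cluster 6 it was 1.2. The macrophage-like difference was 0.766 (resolution 0.4) and 1.32 points (cells with 1000 to 2000 UMIs) in TKO1, and -7.08 (clustering with the members), -7.64 (1000 to 2000 UMIs) and -9.63 (0 Mycn UMIs) in TKO2. The club-like difference of -0.242 was -0.435 at resolution 0.4 and turned to 1.09 points in cells with 1000 to 2000 UMIs, and the cause was not tested. For cycling, the TKO1 difference of 0.0212, whose interval held 0, was -0.228 and 0.155 at 400 and 1000 UMIs, -0.871 with 0 Mycl UMIs and -0.964 for medians. In TKO2 it was -2.46 and -3.01 with cuts at 2 and 5, -2.68 and -2.36 at 400 and 1000 UMIs, -2.98 with 0 Mycn UMIs and -2.32 for medians. The Mycn difference was 2.95 at 400 UMIs, 2.16 without cycling cells, and 4.08, 3.57 and 2.31 in bins 1, 3 and 4 of depth. The Mycl difference of 8.79 points, added after the data were seen, was 10.0 and 8.49 at 400 and 1000 UMIs, and 4.67, 8.11 and 9.30 in the same bins, with 5 cells in the first, and 8.83 without cycling cells, which left 2 cells with 2 or more Mycl UMIs. With totals that leave out the members, 3 members rather than 1 were at least 2-fold lower in the macrophage-like cells of TKO2. Rpl11 and Rpl35a turned from 0.19 and 0.10 to -0.15 and -0.10 without the TKO1 clusters that had markers of other types among their leading genes. Clusters 4 and 6, with the most Rpl11 (5595 and 9129 CPM), were among those kept and so weighed more. The part of this weighting in these ratios, and in the 1.04 above, was not tested. No paired analysis was possible because each tumor is 1 library and no test was run. With 2 libraries, spread between mice is unknown, and members under about 100 UMIs in a class have wide intervals.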
